A study of Mus musculus with 15 samples.

Results

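The comparison described here is that of regulatory T cells (Tregs) from skin treated with MC903 against Tregs from untreated skin, both from wild-type (WT) mice. Its members were taken from the sample titles and treatments: 3 libraries of WT Tregs from MC903-treated ears and 3 of WT Tregs from untreated skin, 6 of the 15 libraries of the series. All 15 came from adult C57BL/6 mice that carry Foxp3 cre-eyfp, in which the promoter of Foxp3, the gene of the transcription factor that defines Tregs, drives Cre recombinase and a yellow fluorescent protein (YFP). Tregs were sorted as CD45+CD3+CD4+YFP+, so any cell with an active Foxp3 locus could enter the sort. MC903 (calcipotriol), dissolved in ethanol, was put on the ears every other day, 4 times in all, and the untreated mice are labelled as having had no treatment. Untreated Tregs came from back skin together with ears and treated Tregs from ears alone, so effects of MC903, of its solvent and of the skin site cannot be told apart. The remaining libraries are 3 of untreated skin and 3 of MC903-treated ears from mice that also carry Rora fl/fl, here called Rora cKO, in which the Cre removes a floxed part of Rora, the gene of the nuclear receptor ROR-alpha, and 3 of WT Tregs from axillary lymph nodes (LN). The titles call the libraries biological replicates, but whether each came from 1 mouse or a pool is not given in the sources used here, and the p-values measure only the spread between these libraries.

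Tregs restrain other immune cells through CTLA-4, capture of interleukin 2 and release of interleukin 10 and TGF-beta. Those of the skin also carry a tissue programme, with the interleukin 33 receptor ST2, the growth factor amphiregulin and receptors that hold cells in tissue, while recirculating Tregs carry genes of lymphoid T cells. MC903 is an analogue of vitamin D that makes keratinocytes release the cytokine TSLP, and mouse skin treated with it is a common model of atopic dermatitis with a type 2 response.

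Total counts of the 6 libraries were 19.8 to 27 M (M, mega), and those of the whole series 19.8 to 27.7 M. After the filter on low counts 13578 of 24015 genes were tested. The labelled cell type was checked by its markers. Foxp3 was read at 148, 202 and 163 CPM (counts scaled to a common library total) in the untreated libraries and 159, 110.5 and 117 CPM in the MC903 libraries, Ctla4 at 3785, 2980 and 3655 and 3568, 2434 and 3404 CPM, and Cd4 at 336, 229.7 and 249.7 and 401, 369 and 426 CPM. Cd4 passed the test (0.55 ± 0.14, SE, n = 3 per group, adjusted p = 0.0215), a call lost in 6 of 21 alternatives, among them without replicate 2 (adjusted p = 0.0839) or 3 (0.066) of WT untreated skin and without replicate 1 (0.0626) or 3 (0.0781) of WT MC903 skin. Cd3e, Cd5 and Ptprc, general T cell and leukocyte genes, did not pass the test, while Cd8a was at most 1.65 CPM. The first principal component of the 6 libraries held 36.3% of the variance over the 1000 genes most variable across the 15 libraries and put the untreated libraries at -56.1 to 8.74 and the MC903 libraries at 20.4 to 25.9.

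With MC903, 683 genes were higher (5.03% of the 13578 tested) and 738 were lower (5.44%) at an adjusted p under 0.05 by edgeR's quasi-likelihood test. A change of at least 2-fold was seen in 255 of the higher and 276 of the lower genes. The libraries of the 2 groups did not overlap for 3830 genes (28.2% of those tested) and for 1386 of the 1421 called genes. Groups being apart, where given for called genes below, therefore adds little to their calls. The median log2 change over all genes tested was 0.01. With only the 6 WT skin libraries in the fit, 218 genes were higher and 323 lower. Without replicate 2 of WT untreated skin 430 were higher, without replicate 1 of WT MC903 skin 378 were higher and 389 lower, without its replicate 2 487 were lower, and without its replicate 3 380 were higher and 453 lower. A fit without replicate 2 of WT untreated skin and replicate 3 of WT MC903 skin, which held the highest muscle and fibroblast marker sums and were picked once these had been seen, gave 253 higher and 355 lower. It is called the fit without 2 libraries below. Over the 35 gene lists examined, of 39 counts of at most 2 called members (higher or lower) in them, 34 moved by over 1.5 times under at least 1 alternative.

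**Figure D1:**
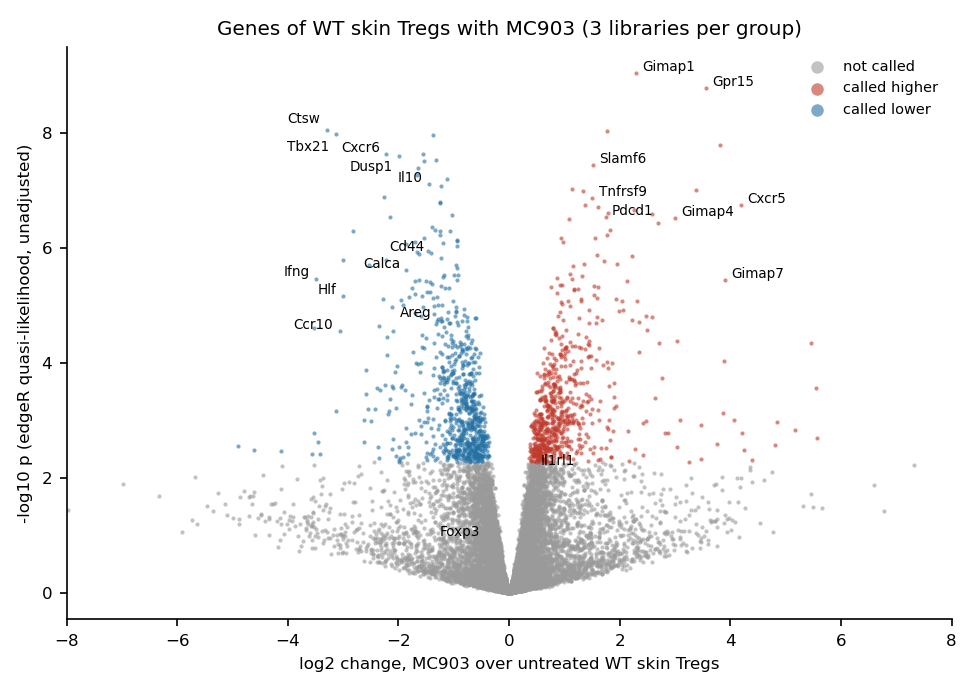
Each point is a gene of WT skin Tregs, with the log2 change of MC903 over untreated skin on the x axis and the -log10 of the unadjusted p of the edgeR test on the y axis (3 libraries per group). The 683 genes called higher are red and the 738 called lower are blue; 234 genes with no count in one of the groups, of which 20 were called, are not drawn, and 7 lie beyond the axis limit of 8. Gimap1 and Gpr15 lie at the top right, and Ctsw and Tbx21 at the top left.

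Receptors that guide T cells to tissues changed in both directions. Gpr15, a chemoattractant receptor known for homing of T cells to gut and skin, was read at 5.34, 4.6 and 3.28 CPM in the untreated libraries and 57.8, 57.7 and 41.4 CPM in the MC903 libraries. Its log2 change was 3.56 ± 0.29 (SE, n = 3 per group, adjusted p = 1.09e-05), and each MC903 library lay above each untreated one. LN Tregs held 9.84, 18.5 and 9.92 CPM of Gpr15. Ccr4, the receptor of the skin and dendritic cell chemokines CCL17 and CCL22, rose from 93.5, 55.8 and 89.6 CPM to 149.8, 140.3 and 173 CPM (0.96 ± 0.23, adjusted p = 0.0144), a call lost when replicate 2 of WT untreated skin (adjusted p = 0.0582) or replicate 3 of WT MC903 skin (0.0559) was left out, with 0.143 the highest adjusted p of its alternatives.

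Among the receptors that fell were Cxcr6, which binds CXCL16 and marks T cells that stay in tissue, and Ccr10, which binds the keratinocyte chemokine CCL27. Cxcr6 stood at 581, 454 and 799 CPM untreated and 116, 140.2 and 138 CPM with MC903 (-2.22 ± 0.22, SE, adjusted p = 3.39e-05). Ccr10 stood at 60.5, 80.2 and 54.6 CPM untreated and 3.29, 8.62 and 11.5 CPM with MC903 (-3.06 ± 0.49, adjusted p = 0.00205). Neither gene's groups overlapped. Cd44, the hyaluronan receptor of activated T cells, fell from 834, 732 and 835 CPM to 278, 329 and 295 CPM (-1.41 ± 0.19, adjusted p = 0.000284), and Itgae, the CD103 chain that binds E-cadherin on epithelium, from 961, 509 and 745 CPM to 279, 324 and 343 CPM (-1.23 ± 0.20, adjusted p = 0.00156). The integrin chains Itgb1 and Itgb3 rose, by log2 changes of 1.18 ± 0.17 and 0.93 ± 0.17. Of 17 integrin genes tested, 2 were higher (11.8%, against 5.03% of all genes), 2, Itgae among them, lower (11.8%, against 5.44%) and 13 not called. Their median log2 change was -0.21, with 8 positive and 9 negative. The lower count ran from 1, with only the 6 WT skin libraries in the fit, to 4. Of 29 chemokine, lipid and homing receptors tested, 7 were higher (24.1%, against 5.03% of all genes), 6 lower (20.7%, against 5.44%) and 16 did not pass, and the median log2 change was 0.18. Without replicate 3 of WT MC903 skin 4 were higher. Ccr8, a skin homing receptor, was 685, 602 and 714 CPM untreated and 432, 480.4 and 441 CPM with MC903 and missed the threshold (-0.56 ± 0.23, adjusted p = 0.135), but passed it in a fit of the 12 skin libraries (adjusted p = 0.00801), of the 6 WT skin libraries (0.0417) and by limma-voom (0.043).

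**Figure D2:**
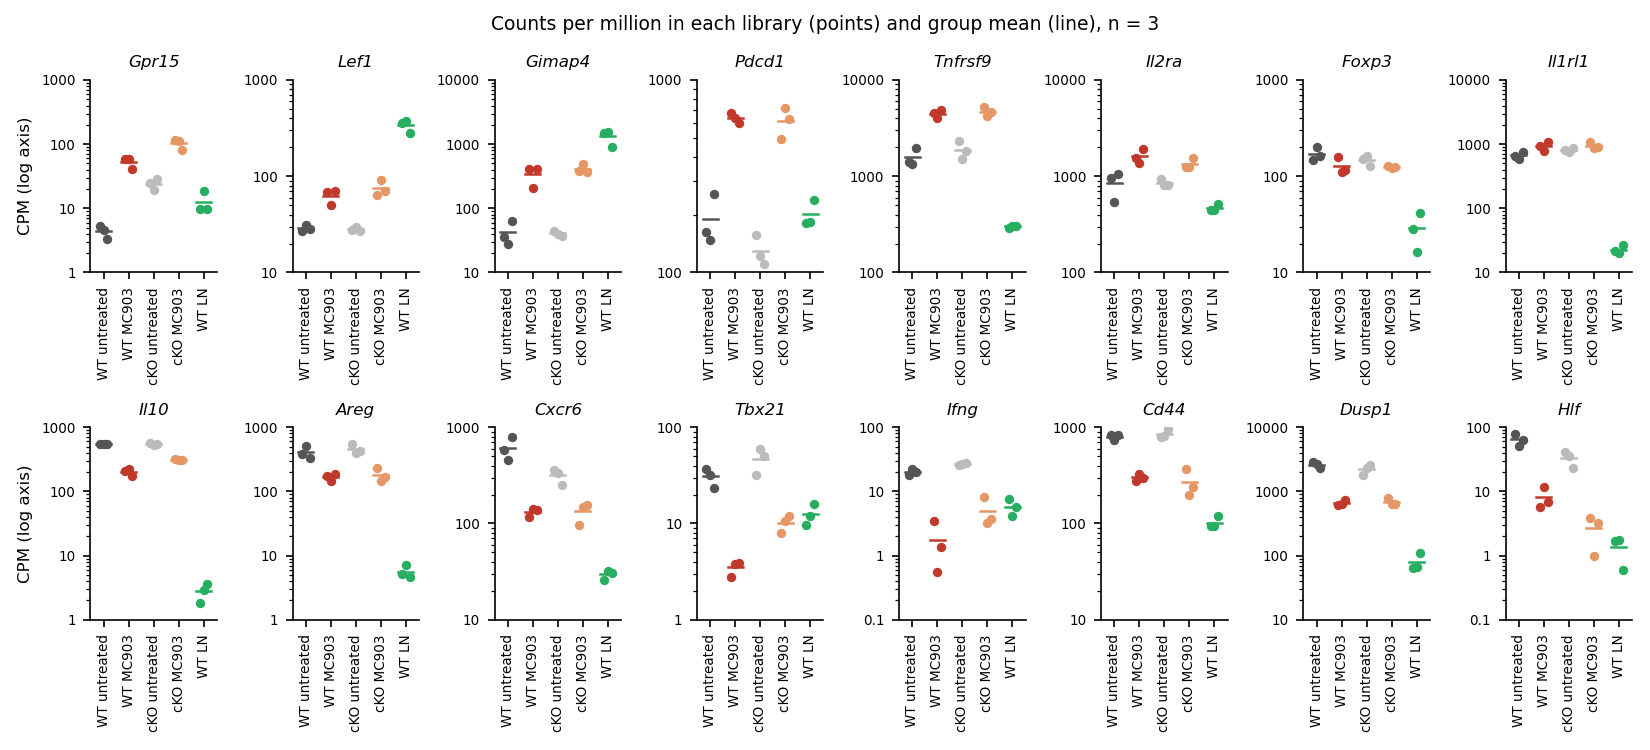
Scaled counts (CPM, log axis) of 16 genes in each library of the 5 groups; points are libraries and lines are group means (n = 3). Gpr15, Lef1, Gimap4, Pdcd1 and Tnfrsf9 are higher and Il10, Areg, Cxcr6, Tbx21, Ifng, Cd44, Dusp1 and Hlf lower in all 3 WT MC903 libraries than in any WT untreated library, and the Foxp3 libraries overlap.

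Several genes of resting and lymphoid T cells rose. Of 20 tested, 8 were higher (40%, against 5.03% of all genes), 3 were lower (15%, against 5.44%) and 9 did not pass, with a median log2 change of 0.32. The transcription factor gene Lef1 rose from 26.9, 31 and 28.1 CPM to 68, 50 and 70.4 CPM (1.13 ± 0.16, adjusted p = 0.000581). Pecam1, the adhesion molecule CD31 of naive T cells and of endothelium, rose from 22.1, 20.3 and 34.9 CPM to 82.2, 92.8 and 91.1 CPM (1.79 ± 0.21, adjusted p = 0.00011). The sums of the other 11 endothelial markers overlapped between the groups, at 1.65 to 33.9 CPM untreated and 3.48 to 44.4 CPM with MC903. Among them Cdh5, Kdr and Flt1, which define endothelium, did not pass the test. Of the 12 markers tested, Pecam1 included, 7 had a positive and 5 a negative log2 change. The part of endothelial RNA in the Pecam1 reads was not tested. Il7r, the interleukin 7 receptor chain, rose from 375, 232 and 298 CPM to 620, 466 and 674 CPM (0.96 ± 0.18, adjusted p = 0.00329), and Satb1, a chromatin organiser of thymocytes and Tregs, from 33.2, 36 and 23.3 CPM to 127, 97.8 and 95.4 CPM (1.79 ± 0.34, adjusted p = 0.00516). Other higher members, named after their values were seen, included Tcf7, S1pr1 and Ly6c1. The 3 lower ones, likewise, were Ccr7 (-0.78 ± 0.22), the receptor for entry to LN, Klf2 (-0.98 ± 0.27), a factor that turns on S1pr1, and Foxp1. The calls of Ccr7, Klf2 and Foxp1 were lost in 7, 8 and 7 of 21 alternatives (adjusted p up to 0.135, 0.262 and 0.144), including with replicate 1 of WT untreated skin or replicate 2 or 3 of WT MC903 skin left out. Ly6c1 lost its call in 12 alternatives (up to 0.151), among them each of the 3 WT MC903 libraries left out, and Tcf7 in 3 (up to 0.0752), among them replicate 2 of WT MC903 skin left out (0.0525). With only the 6 WT skin libraries in the fit, 6 members were higher and 0 lower, and S1pr1 was not called (adjusted p = 0.0607). The lower count was 0 or 1 without any 1 of replicates 1 and 3 of WT untreated skin and the 3 WT MC903 libraries.

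Of the 15 genes named for the largest rises, 5 were Gimap genes. The 15 were taken only from called genes whose groups did not overlap and whose mean log2 CPM was at least 3. Rises of genes at a lower level, such as Cxcr5 below, are therefore not among them. GIMAP proteins are small GTPases of lymphocytes known for a part in T cell survival. Gimap4 was read at 36.3, 28 and 63.6 CPM in untreated and 407, 204 and 414 CPM in MC903 libraries (3.01 ± 0.33, SE, adjusted p = 0.000115). Gimap7 was read at 4.68, 1.81 and 5.44 CPM and 86.4, 26.1 and 65.3 CPM (3.91 ± 0.50, adjusted p = 0.000581), and Gimap1 at 48.1, 44.9 and 57.8 CPM and 264, 185 and 288 CPM (2.29 ± 0.18, adjusted p = 1.09e-05). Gimap5 and Gimap6 changed by 2.69 ± 0.32 and 2.35 ± 0.36. In all 5 the groups did not overlap, which the rule required. The LN libraries held 1506, 1535 and 916 CPM of Gimap4 and 404, 366 and 313 CPM of Gimap1. The whole family was then taken, after these values were seen: all 8 members in the table were higher, with a median log2 change of 2.32. The genes lie next to each other in the genome and resemble each other in sequence, so reads may be shared between them.

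Genes of follicular T cells, the helper and regulatory cells that work in germinal centres, gave 8 higher (33.3%, against 5.03% of all genes), 1 lower (4.17%, against 5.44%) and 15 not called among 24 tested (median log2 change 0.24). Pdcd1, which encodes the inhibitory receptor PD-1, was at 162, 148 and 257 CPM untreated and 671, 631 and 596 CPM with MC903, a log2 change of 1.74 ± 0.21 (SE, adjusted p = 0.000114). The signalling genes Slamf6 and Sh2d1a, a SLAM receptor and its adaptor, went from 63.1, 58 and 73.4 to 216, 141 and 197 CPM (1.51 ± 0.15, adjusted p = 3.76e-05) and from 21.4, 31.4 and 21.6 to 88.8, 52.6 and 83.7 CPM (1.59 ± 0.21, adjusted p = 0.000295). Il1r2, the decoy receptor of interleukin 1, went from 195, 224 and 211 to 354, 442 and 478 CPM (1.01 ± 0.20, adjusted p = 0.00481). The groups of all 4 genes were apart. Cxcr5, the receptor for entry to B cell follicles, also rose (4.20 ± 0.48, adjusted p = 9.05e-05), but at a low level: 0.142, 0.177 and 0.0538 CPM untreated, 1.23, 3.08 and 2.95 CPM with MC903 and 42, 47.8 and 44.5 CPM in LN. Bcl6, the master regulator of these cells, went down instead, from 63.6, 25.4 and 72.1 CPM to 23.3, 21.7 and 36.8 CPM (-0.98 ± 0.29, adjusted p = 0.0434). Its groups overlapped, and the call of Bcl6 was lost in 11 of 21 alternatives, with adjusted p-values up to 0.174. It ended without replicate 1 (0.131) or 3 (0.158) of WT untreated skin, without replicate 1 (0.158) or 2 (0.147) of WT MC903 skin, and without 5 of the 6 Rora cKO skin libraries (0.0556 to 0.0576). Il21 had no count in any of the 6 libraries, and Maf was not called (-0.26 ± 0.17, adjusted p = 0.343). B cell markers were low in both groups (summed 8.51 to 13.4 CPM untreated and 15 CPM in each MC903 library), but their sums did not overlap. Of the 11 markers, 5 had no count in any untreated library and 2 had none in any MC903 library. Of the 10 tested, 0 were called. The part of B cell RNA in the Cxcr5 reads was not tested.

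Of 20 Treg identity genes tested, 5 were higher (25%, against 5.03% of all genes), 2 lower (10%, against 5.44%) and 13 not called (median log2 change 0.10). The higher count was 3 without replicate 3 of WT MC903 skin, 2 with only the 6 WT skin libraries and 1 in the fit without 2 libraries. Foxp3 did not pass the test (-0.41 ± 0.24, adjusted p = 0.314), nor did Ctla4 (-0.15 ± 0.14, adjusted p = 0.544). Il2ra, the CD25 chain that lets Tregs capture interleukin 2, rose from 969, 545 and 1067 CPM to 1534, 1382 and 1938 CPM (0.91 ± 0.20, SE, adjusted p = 0.00926), and Stat5b, which relays that signal, rose by 0.61 ± 0.12 (adjusted p = 0.0045, or 0.0586 without 2 libraries). Il2ra missed the threshold with only the 6 WT skin libraries in the fit (adjusted p = 0.0717) and in the fit without 2 libraries (0.0567). Folr4, the folate receptor 4 of Tregs, rose from 31.4, 17.9 and 19.7 CPM to 57.9, 42.5 and 67.7 CPM (1.28 ± 0.27, adjusted p = 0.00742, or 0.104 without 2 libraries), and Capg, an actin capping protein, fell by 0.65 ± 0.13 (adjusted p = 0.00614).

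Receptors of the TNF superfamily showed a rise of 2 members that mark activated Tregs. Tnfrsf9, which encodes the costimulatory receptor 4-1BB, was 1421, 1352 and 1975 CPM untreated and 4585, 4005 and 4866 CPM with MC903 (1.5 ± 0.17, SE, adjusted p = 7.81e-05). Tnfrsf8, which encodes CD30, was 7.9, 6.19 and 9.48 CPM and 31.9, 27.7 and 38.2 CPM (2.05 ± 0.33, adjusted p = 0.00122). The 2 groups did not overlap for either gene. The TNF receptor Tnfrsf1a and the death receptor Tnfrsf10b fell, from 44.2, 39.7 and 45.7 to 15.8, 16.5 and 20.8 CPM (-1.28 ± 0.20, adjusted p = 0.00106) and from 53.3, 46.8 and 49.1 to 21, 27.6 and 26.9 CPM (-0.98 ± 0.16, adjusted p = 0.00142). In the list of 34 receptors and ligands 4 were higher (11.8%), 5 lower (14.7%) and 25 not called, against 5.03% and 5.44% of all genes. With only the 6 WT skin libraries 3 were lower. Tnfrsf25, the DR3 receptor, was 146, 176 and 149 CPM and 171, 231 and 204 CPM and not called (0.37 ± 0.16, adjusted p = 0.154).

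Genes of 3 secreted Treg products, Il10, Areg and Fgl2, fell. Il10 was read at 556, 556 and 545 CPM in untreated and 210.3, 222 and 173 CPM in MC903 libraries (-1.45 ± 0.15, SE, adjusted p = 6.12e-05). Areg, which encodes the tissue growth factor amphiregulin, was read at 384, 518 and 334 CPM and 173, 143 and 188 CPM (-1.29 ± 0.21, adjusted p = 0.00148). Fgl2, a secreted suppressor of T cell responses, was read at 687, 349 and 722 CPM and 162, 185 and 193 CPM (-1.70 ± 0.27, adjusted p = 0.0013). For each of the 3 the lowest untreated library lay above the highest MC903 library, and LN Tregs held 1.81, 2.92 and 3.58 CPM of Il10 and 5.18, 7.04 and 4.58 CPM of Areg. Calca, which encodes calcitonin and the neuropeptide CGRP, fell from 52.7, 89.1 and 89.9 CPM to 22.8, 26.5 and 14.5 CPM (-1.86 ± 0.26, adjusted p = 0.000451), and the gelatinase gene Mmp9 from 62.7, 63.1 and 46.7 CPM to 3.96, 8.17 and 9.4 CPM (-3 ± 0.40, adjusted p = 0.000342). Other suppressive genes did not pass: Gzmb, which encodes granzyme B, was 988, 842 and 973 CPM and 1185, 956 and 1247 CPM (0.27 ± 0.23, adjusted p = 0.488), Tgfb1 changed by -0.30 ± 0.20 (adjusted p = 0.385) and Ebi3 by 0.51 ± 0.18 (adjusted p = 0.084, or 0.0239 with replicate 1 of WT MC903 skin left out). Among 21 suppressive molecules 2 were higher (9.52%), 3 lower (14.3%) and 16 not called, against 5.03% and 5.44% of all genes (median log2 change 0.07). The higher count was 5 without replicate 3 of WT untreated skin.

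Type 1 genes were among the largest falls. Tbx21, which encodes T-bet, the master regulator of type 1 T cells, was 37.1, 32.1 and 23.2 CPM untreated and 2.8, 3.83 and 3.88 CPM with MC903 (-3.13 ± 0.29, SE, adjusted p = 2.43e-05). Its target Ifng, the interferon gamma gene, was 17.9, 22.2 and 20.1 CPM and 3.4, 0.557 and 1.36 CPM (-3.50 ± 0.50, adjusted p = 0.000572). The cathepsin gene Ctsw and the granule gene Nkg7, both of cytotoxic lymphocytes, went from 55.3, 55.8 and 113 to 7.89, 7.39 and 7.46 CPM (-3.30 ± 0.30, adjusted p = 2.43e-05) and from 84.3, 102 and 70.6 to 28.2, 29.6 and 25 CPM (-1.63 ± 0.23, adjusted p = 0.000581). Cxcl10, a chemokine induced by interferon gamma, fell from 76.3, 89 and 154 CPM to 22.6, 17.8 and 26.3 CPM (-2.26 ± 0.25, adjusted p = 7.81e-05). The groups were apart for all 5 genes, which for Ctsw was a condition of its being named. NK and innate lymphoid markers summed to 4.02 to 22.6 CPM untreated and 5.61 to 16.1 CPM with MC903. Of the 10 markers, 4 had no count in any untreated library and 4 in any MC903 library, Ncr1 among both. Of the 6 tested, 0 were called, with 3 positive and 3 negative log2 changes. The part of RNA of these cells in the 5 falls was not tested. Stat4, which relays interleukin 12, rose instead, from 114, 69.6 and 153 CPM to 271, 208 and 274 CPM (1.16 ± 0.22, adjusted p = 0.00434). Of 19 type 1 and cytotoxic genes 2 were higher (10.5%, against 5.03% of all genes), 5 lower (26.3%, against 5.44%) and 12 not called, with a median log2 change of -0.02. Without replicate 1 of WT MC903 skin 3 were lower. The other higher gene was Gzma, which encodes granzyme A and was named after its values were seen. Its log2 change was 3.26, and its adjusted p, just under the threshold, rounds to 0.05. The higher count was 1 in 16 of 21 alternatives. Of 30 interferon-stimulated genes 1 was higher (3.33%), 5 lower (16.7%, or 3 genes without replicate 2 of WT MC903 skin) and 24 not called (median -0.50). Bst2 (-0.86 ± 0.19; adjusted p = 0.0112, or 0.0884 without 2 libraries) and Ifi35 (-0.69 ± 0.14) were among the lower ones.

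Of 22 type 2 genes tested, 1 was higher (4.55%, against 5.03%), 2 lower (9.09%, against 5.44%) and 19 not called (median log2 change -0.41). Gata3, the master regulator of type 2 T cells, was 866, 614 and 674 CPM untreated and 725, 673 and 835 CPM with MC903 (0.05 ± 0.13, SE, adjusted p = 0.851), and its sign turned without replicate 2 of WT untreated skin (-0.05) or replicate 3 of WT MC903 skin (-0.04). Il1rl1, which encodes the interleukin 33 receptor ST2, was 649, 593 and 768 CPM and 924, 769 and 1079 CPM. Its groups did not overlap, yet it missed the threshold (0.46 ± 0.15, adjusted p = 0.057). It passed in 4 of 21 alternatives: by DESeq2 (0.0269), with the replicate block (0.0258), and with replicate 3 of WT untreated skin (0.0376) or replicate 2 of WT MC903 skin (0.0331) left out. Crlf2, the receptor chain for TSLP, was 98.5, 79.3 and 82.1 CPM and 102, 96.1 and 113 CPM (0.26 ± 0.14, adjusted p = 0.261). The cytokine genes were low in every library: Il4 stood at 1.56, 3.94 and 2.37 CPM and 1.68, 1.97 and 1.17 CPM, Il5 at 1.23, 4.42 and 0 CPM and 2.65, 3.6 and 2.1 CPM, and Il13 at 2.32, 4.2 and 2.58 CPM and 0.187, 1.97 and 0.544 CPM, with adjusted p-values of 0.322, 0.857 and 0.148. Il13 passed, as lower, by limma-voom (adjusted p = 0.0339) and with replicate 2 of WT MC903 skin left out (0.0311). Il9r, the interleukin 9 receptor chain, fell (-0.85 ± 0.21, adjusted p = 0.0195), a call lost on leaving out replicate 1 of WT untreated skin (adjusted p = 0.0935) or replicate 1 (0.0833) or 2 (0.0661) of WT MC903 skin. Il21r, the interleukin 21 receptor, fell from 914, 575 and 611 CPM to 267, 258 and 369 CPM (-1.23 ± 0.18, adjusted p = 0.000658).

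In the tissue Treg programme 3 of 28 genes were higher (10.7%, against 5.03% of all genes), 8 lower (28.6%, against 5.44%) and 17 not called (median log2 change -0.25). Without replicate 3 of WT untreated skin 5 were higher. Rora itself, which was not floxed in these mice, fell from 1327, 1341 and 1510.1 CPM to 813, 739 and 812 CPM (-0.82 ± 0.15, SE, adjusted p = 0.00292). Sdc4, which encodes the proteoglycan syndecan-4, fell from 535, 443 and 479 CPM to 165, 193 and 229 CPM (-1.31 ± 0.13, adjusted p = 3.4e-05). Batf, a factor needed for tissue Tregs, rose from 556, 614 and 460.2 CPM to 785, 768 and 950.3 CPM (0.62 ± 0.15, adjusted p = 0.0184), a call lost in 4 of 21 alternatives. Its adjusted p was 0.0641 with replicate 3 of WT untreated skin left out and 0.082 with replicate 3 of WT MC903 skin left out. Klrg1 (0.13 ± 0.20, adjusted p = 0.76) and Irf4 (-0.77 ± 0.25, adjusted p = 0.0616) were not called, although Irf4 passed in 4 of 21 alternatives (adjusted p = 0.00582 to 0.0433).

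**Figure D3:**
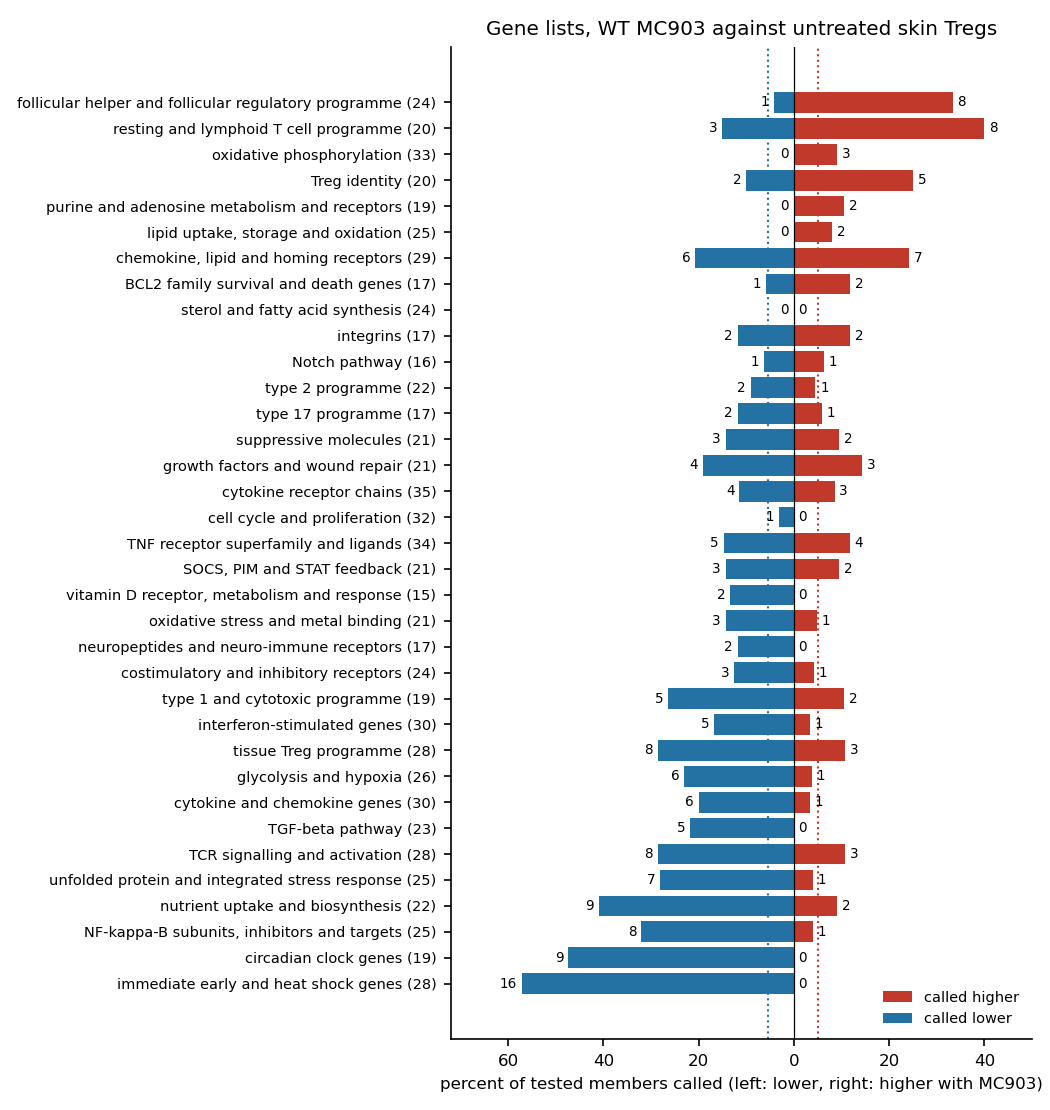
Percent of the tested members of 35 gene lists (number tested in brackets) called higher (red, to the right) or lower (blue, to the left) with MC903 in WT skin Tregs; numbers at the bar ends are gene counts and dotted lines mark 5.03% and 5.44%, the shares over all genes. The immediate early and heat shock list (0 higher, 16 lower) and the clock list (0 higher, 9 lower) stand at the bottom, and the follicular and resting lists (8 higher each) at the top.

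The list with the highest share of lower genes was that of immediate early and heat shock genes, which respond within minutes to hours to receptor signals, stress and tissue handling. Of 28 tested, 16 were lower (57.1%, against 5.44% of all genes), 0 higher (5.03%) and 12 not called, and the median log2 change was -0.80. Dusp1, a phosphatase that switches off MAP kinases, went from 2889.9, 2686 and 2303 CPM to 617, 647 and 725 CPM (-1.99 ± 0.20, SE, adjusted p = 3.39e-05). The transcription factor genes Atf3 and Klf6 went from 265, 407 and 249 to 93.4, 99.5 and 90 CPM (-1.70 ± 0.24, adjusted p = 0.000582) and from 1834, 1624 and 1779 to 748, 534 and 609 CPM (-1.47 ± 0.19, adjusted p = 0.000273). Klf4 fell by 2.35 ± 0.38 (adjusted p = 0.0018) and Zfp36, which encodes an mRNA decay factor, by 1.43 ± 0.21 (adjusted p = 0.000591). Fos, Fosb, Jun and Junb, subunits of AP-1 named after their values were seen, fell by 1.81 ± 0.27, 2.12 ± 0.32, 1.38 ± 0.28 and 1.14 ± 0.20. Summed over the list, the untreated libraries held 33263, 34087 and 25175 CPM, the MC903 libraries 16388, 15853 and 17455 CPM and the LN libraries 5407, 5224 and 4823 CPM. Both skin groups were digested for 90 minutes per the labels, and the untreated digests held back skin as well as ears.

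Some T cell receptor response genes fell as well. Nr4a1, which rises within hours of receptor signalling, was 2292, 2217 and 1400.1 CPM untreated and 510, 695 and 706 CPM with MC903 (-1.63 ± 0.21, SE, adjusted p = 0.000284). Egr2, a factor that restrains T cell activation, was 36.5, 33.8 and 27.7 CPM and 13.8, 13.5 and 14.9 CPM (-1.22 ± 0.20, adjusted p = 0.00154), and Spry1, an inhibitor of Ras signalling, was 28.2, 18.6 and 19.8 CPM and 8.67, 4.2 and 6.99 CPM (-1.74 ± 0.32, adjusted p = 0.00343). Of 28 T cell receptor genes 3 were higher (10.7%, against 5.03% of all genes), 8 lower (28.6%, against 5.44%) and 17 not called (median log2 change -0.34). The lower count was 5 without replicate 2 of WT MC903 skin and the higher count 1 in the fit without 2 libraries. The higher ones were Tnfrsf9, Batf and Myc, which drives growth and went from 98.6, 81.4 and 71.2 to 125, 153 and 197 CPM (0.92 ± 0.19, adjusted p = 0.00664, or 0.0825 without 2 libraries). Cd69, a marker of recent activation and tissue residence, fell by 0.53 ± 0.16 (adjusted p = 0.0413), a call lost in 10 of 21 alternatives, with adjusted p-values up to 0.157. Leaving out replicate 1 (0.0528) or 3 (0.147) of WT untreated skin, replicate 2 (0.157) or 3 (0.115) of WT MC903 skin, or any of 3 Rora cKO libraries (0.0506 to 0.056) ended it. Of 25 NF-kappa-B genes 1 was higher (4%), 8 lower (32%) and 16 not called (median -0.31). The feedback inhibitor Tnfaip3 went from 1583, 974 and 1439 to 799, 500.5 and 679 CPM (-1.01 ± 0.20, adjusted p = 0.00581) and the target Irf1 from 489.5, 395 and 464 to 213, 152 and 237 CPM (-1.16 ± 0.17, adjusted p = 0.000688). With only the 6 WT skin libraries in the fit, 3 NF-kappa-B genes were lower, and 3 to 5 were lower without replicate 2 of WT untreated skin, any 1 of the 3 WT MC903 libraries, replicate 3 of Rora cKO untreated skin, or replicate 1 or 2 of Rora cKO MC903 skin.

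Of 19 circadian clock genes tested, 9 fell (47.4%, against 5.44% of all genes) and 0 rose (5.03%). The clock turns on BMAL1 and CLOCK, which bind E-boxes (CACGTG) and drive the Per, Cry and REV-ERB repressors and the output factors DBP, TEF and HLF. The other 10 were not called, and the median log2 change was -0.89. Over the alternatives the lower count ran from 6, without replicate 1 of WT MC903 skin, to 10. Hlf was 78.4, 51.8 and 64 CPM untreated and 5.72, 11.6 and 6.91 CPM with MC903 (-3 ± 0.45, SE, adjusted p = 0.000855), and Nr1d1, which encodes REV-ERB-alpha, was 147, 106 and 111 CPM and 18, 29.6 and 30.1 CPM (-2.23 ± 0.30, adjusted p = 0.000342). Per1 was 212, 157 and 121 CPM and 65, 56.2 and 69.3 CPM (-1.36 ± 0.22, adjusted p = 0.00132), and the repressor Ciart was 37, 52.2 and 40.7 CPM and 23.2, 16.5 and 17.8 CPM (-1.18 ± 0.20, adjusted p = 0.00184). The groups of these 4 genes did not overlap. The activators were not called: Arntl, which encodes BMAL1, was 122, 98.8 and 117 CPM and 99.3, 103 and 112 CPM (-0.10 ± 0.18, adjusted p = 0.777), and Clock changed by -0.29 ± 0.18 (adjusted p = 0.334); both were added after their values were seen. The hour of tissue collection is not given in the sources used here. The transcription factor genes Klf9, Arnt2 and Rfx2 are not on the list but were among the 15 named for the largest falls, at -2.21 ± 0.41, -2.28 ± 0.35 and -2.58 ± 0.51 (Rfx2 adjusted p = 0.00542, or 0.0741 without 2 libraries).

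**Figure D4:**
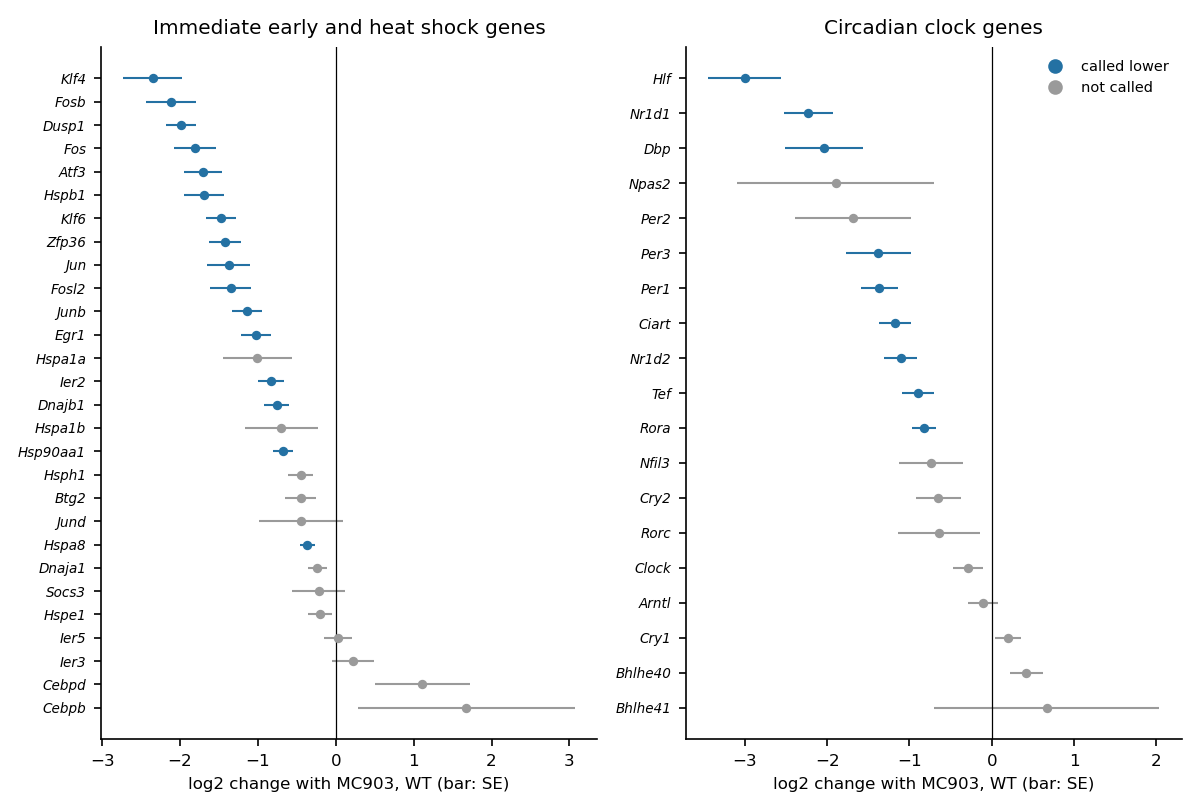
The log2 change with MC903 in WT skin Tregs (x axis, bars are SE, 3 libraries per group) of the 28 immediate early and heat shock genes and the 19 clock genes tested. Blue genes were called lower (16 and 9), grey ones were not called, and none was called higher.

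The promoters of 4 lower genes were picked because they hold motifs for factors that answer to cAMP, stress or the clock. They do not stand for the other lower genes. Each runs over the 250 bases before the transcription start from RefSeq on GRCm38.p6, matched by gene symbol, since the counts were made on mm9. Capitals mark TGACGTCA, the cAMP response element (CRE), and CACGTG, the E-box, each its own reverse complement. Dusp1 (chr17:26508473-26508722, minus strand) holds both, Areg (chr5:91139349-91139598, plus strand) and Hlf (chr11:90390918-90391167, minus strand) hold 1 CRE each, and Ciart (chr3:95882229-95882478, minus strand) holds 3 E-boxes.
Dusp1: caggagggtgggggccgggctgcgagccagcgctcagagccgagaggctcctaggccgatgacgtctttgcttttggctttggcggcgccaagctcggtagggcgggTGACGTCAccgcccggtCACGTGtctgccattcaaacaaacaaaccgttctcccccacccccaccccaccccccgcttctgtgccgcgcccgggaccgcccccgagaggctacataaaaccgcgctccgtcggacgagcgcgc
Areg: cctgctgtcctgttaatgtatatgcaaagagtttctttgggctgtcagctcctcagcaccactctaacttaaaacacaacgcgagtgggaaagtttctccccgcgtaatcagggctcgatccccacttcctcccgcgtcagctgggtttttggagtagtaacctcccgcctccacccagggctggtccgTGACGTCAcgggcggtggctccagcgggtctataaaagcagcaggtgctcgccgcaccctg
Hlf: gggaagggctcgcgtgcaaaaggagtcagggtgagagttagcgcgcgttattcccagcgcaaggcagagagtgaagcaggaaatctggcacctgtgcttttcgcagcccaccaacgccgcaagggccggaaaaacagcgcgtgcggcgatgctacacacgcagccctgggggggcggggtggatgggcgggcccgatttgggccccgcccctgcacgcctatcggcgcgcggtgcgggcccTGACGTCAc
Ciart: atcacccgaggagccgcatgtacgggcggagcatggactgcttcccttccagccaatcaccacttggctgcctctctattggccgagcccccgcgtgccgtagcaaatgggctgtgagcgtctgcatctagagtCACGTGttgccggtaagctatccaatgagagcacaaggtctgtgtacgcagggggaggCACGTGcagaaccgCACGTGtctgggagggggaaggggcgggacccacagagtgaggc
Over the table's windows of 300 bases (250 before to 50 after the start), TGACGTCA was found in 4.62% of the 736 promoters of genes called lower, 1.71% of the 703 of genes called higher, 2.95% of the 12953 of genes tested and 1.79% of all 32851. For CACGTG the shares were 12.6%, 7.82%, 9.62% and 7.15%. TGACTCA, the AP-1 site, searched on both strands, gave 3.26%, 2.7%, 3.89% and 5.2%, and AGGTCA, the nuclear receptor site, also on both strands, 10.6%, 12.1%, 12.7% and 16.3%. Of the 13 promoters of immediate early and heat shock genes called lower, 1 held TGACGTCA and 3 held CACGTG. Of the 11 promoters of clock genes called lower, 1 held TGACGTCA and 4 held CACGTG. The symbols of 568 of the 738 lower and 526 of the 683 higher genes were in the table. These counts and shares describe letters in a window without a test.

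Some genes of nutrient uptake, protein folding and iron storage fell. Slc3a2, the shared chain of the large amino acid transporters, fell from 1103, 1278 and 1039 CPM to 478, 386 and 456 CPM (-1.37 ± 0.13, SE, adjusted p = 2.43e-05), and Slc7a1, an arginine transporter, by 0.97 ± 0.18 (adjusted p = 0.00405). In the list of 22 nutrient and biosynthesis genes 2 were higher (9.09%, against 5.03% of all genes), 9 lower (40.9%, against 5.44%) and 11 not called (median log2 change -0.37). Without replicate 1 of WT untreated skin or replicate 1 or 3 of WT MC903 skin 5 were lower. Ppp1r15a and Atf4, of the integrated stress response, fell by 1.13 ± 0.22 (adjusted p = 0.00533) and 0.78 ± 0.15 (adjusted p = 0.00359), and the chaperone gene Dnajb9 by 0.81 ± 0.13 (adjusted p = 0.00142). Of 25 genes of that response 1 was higher (4%), 7 lower (28%) and 17 not called (median -0.20), with 3 or 4 lower without replicate 1 or 3 of WT untreated skin or replicate 1 or 2 of WT MC903 skin. Fth1, the ferritin heavy chain, stood at 10780.2, 13039.8 and 11281 CPM untreated and 6037, 5850.4 and 6399 CPM with MC903 (-0.94 ± 0.12, adjusted p = 0.000196). Of 26 glycolysis and hypoxia genes 1 was higher (3.85%) and 6 were lower (23.1%, or 3 genes without replicate 1 or 2 of WT MC903 skin), with Ndrg1 at -0.88 ± 0.16 and Egln3, an oxygen sensor, at -0.75 ± 0.13, both responsive to hypoxia, but the median was 0.04. Of 33 oxidative phosphorylation genes 3 were higher (9.09%), at log2 changes of 0.52 to 0.74, and 0 lower. That count ran from 0 in the fit without 2 libraries to 6 without replicate 1 of Rora cKO untreated skin, and was 1 without replicate 1 or 2 of either WT group. Of 32 cell cycle genes 0 were higher (against 5.03% of all genes) and 1, Pcna, was lower (3.12%, against 5.44%), with a median of 0.20. Pcna changed by -0.51 ± 0.13 (adjusted p = 0.0236), a call lost in 6 of 21 alternatives, with adjusted p-values up to 0.219. Leaving out replicate 2 or 3 of either WT group was enough to end it (0.0574 to 0.0991).

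TGF-beta pathway genes gave 0 higher (5.03% of all genes), 5 lower (21.7%, against 5.44%) and 18 not called among 23 tested (median log2 change -0.33). Without replicate 1 or 3 of WT MC903 skin 3 were lower. Id2, an inhibitor of basic helix-loop-helix factors, fell from 2553, 2947 and 2564 CPM to 1026, 1335 and 1036 CPM (-1.25 ± 0.16, SE, adjusted p = 0.00018). The receptor gene Tgfbr1 fell from 119, 105 and 117 CPM to 48.4, 65 and 51 CPM (-1.05 ± 0.19, adjusted p = 0.0026), and the repressor gene Ski by 1 ± 0.20 (adjusted p = 0.00456, or 0.0729 without 2 libraries).

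Vitamin D genes were examined because MC903 acts through the vitamin D receptor. Vdr, the receptor, was low in both groups, at 6.1, 6.01 and 5.11 CPM untreated and 6.65, 3.97 and 5.13 CPM with MC903 (-0.13 ± 0.36, adjusted p = 0.87). Cyp24a1, the enzyme that breaks down vitamin D and its best known target, was 0 in all 3 untreated libraries and 7.14, 0 and 14 CPM in the MC903 libraries, and was not called (adjusted p = 0.0751, or 0.00942 with replicate 2 of WT MC903 skin, its library at 0, left out). Among the MC903 libraries the keratins Krt6a (20.9, 0.149 and 27.5 CPM) and Krt14 (66.8, 3.45 and 115 CPM) were high where Cyp24a1 was. In the untreated libraries, where Cyp24a1 was 0, Krt6a was 0.425, 0 and 0 CPM but Krt14 92.4, 58.1 and 6.08 CPM, and the sum of 18 keratinocyte markers was 299.9 to 665 CPM against 102 to 483 CPM with MC903. The part of keratinocyte RNA in the Cyp24a1 reads was not tested. Of 15 genes of the list 0 were higher and 2 lower (13.3%, against 5.44% of all genes), Ccr10, which is known to be induced by vitamin D in T cells, and Cdkn1a (-0.85 ± 0.18, adjusted p = 0.00943, or 0.078 without 2 libraries).

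Transcripts of other cells differed between the groups for some types. Hair follicle and sebaceous markers summed to 94.4 to 268 CPM in the untreated libraries and 1.11 to 13.1 CPM in the MC903 libraries, with 0 of 7 tested markers called. Dendritic and Langerhans markers summed to 879.9 to 1588 CPM untreated and 623 to 799 CPM with MC903, again with 0 of 12 called. Cd86, a ligand of CTLA-4 carried by dendritic cells and some T cells, fell from 51.6, 44.1 and 89.9 CPM to 15.2, 16.5 and 18.9 CPM (-1.87 ± 0.24, SE, adjusted p = 0.000215), and the part of dendritic cell RNA in that fall was not tested. Melanocyte and Schwann markers summed to 86.2 to 152 CPM and 52.7 to 68.1 CPM, with Mbp called lower (-0.78 ± 0.18; adjusted p = 0.0512 without replicate 2 of WT MC903 skin). Mast cell and basophil markers summed to 30.5 to 37.5 CPM and 42.1 to 72.9 CPM. Without Mbp and Hdc, the called members, both sums overlapped, at 11.6 to 26.1 and 5.68 to 14.2 CPM for melanocytes and Schwann cells and 19.4 to 26.8 and 15.5 to 47.3 CPM for mast cells and basophils. Hdc, the histamine-forming enzyme on that list, rose from 11.2, 11.8 and 10.7 CPM to 25.6, 26.6 and 23.9 CPM (1.18 ± 0.24, adjusted p = 0.00698), with the mast cell proteases Cma1 at 0, 3.58 and 0 CPM and 13.4, 0.297 and 1.55 CPM and Cpa3 at 0, 4.6 and 0.377 CPM and 10, 0.409 and 2.49 CPM in the same libraries. Fcer1a, a chain of the high-affinity IgE receptor that defines mast cells and basophils, was 0 in all 6 libraries. Tpsab1, Ms4a2 and Mcpt8 were also 0 in all untreated libraries, but with MC903 no marker of the list besides Fcer1a was 0 throughout. Of the 9 markers tested, 8 had a positive and 1 a negative log2 change (median 1.88). The part of mast cell RNA in the Hdc reads was not tested. Keratinocyte, fibroblast, muscle, macrophage, granulocyte and CD8 marker sums overlapped between the groups, with the highest muscle sum (221 CPM) in replicate 2 of WT untreated skin and the highest fibroblast sum (345 CPM) in replicate 3 of WT MC903 skin. Sfn, the one keratinocyte marker called, fell from 248, 306 and 217 CPM to 74.7, 71 and 101 CPM (-1.64 ± 0.17, adjusted p = 3.9e-05). In bulk RNA, fewer cells of a type and less RNA per cell cannot be told apart.

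**Figure D5:**
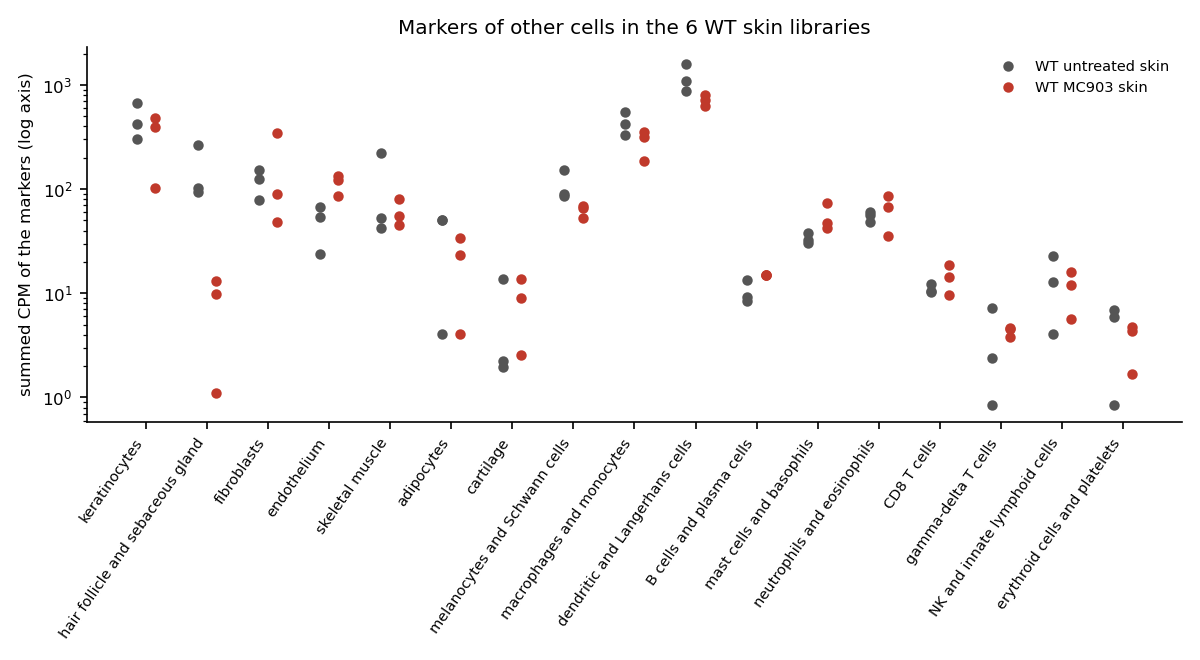
Summed scaled counts (CPM, log axis) of the markers of 17 other cell types in each of the 6 WT skin libraries (grey untreated, red MC903). Hair follicle sums are 94.4 to 268 CPM untreated and 1.11 to 13.1 CPM with MC903, and the keratinocyte, fibroblast and muscle sums overlap.

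The same contrast in Rora cKO Tregs shares no library with the WT one, but the skin site and the solvent go with MC903 in it as well. Rora, the floxed gene, was read at 822, 1074 and 1199 CPM in untreated and 632, 492 and 473 CPM in MC903 libraries of Rora cKO mice, summed over the whole gene, so reads outside the floxed part are counted. In Rora cKO, 809 genes were higher (5.96% of those tested) and 720 lower (5.3%). Of the 683 genes higher in WT, 345 were also called higher in Rora cKO, which is 50.5% of the WT and 42.6% of the Rora cKO list. Of the 738 lower in WT, 411 were called lower in Rora cKO, 55.7% of the WT and 57.1% of the Rora cKO list. The fitted change had the same sign in Rora cKO for 1374 of the 1421 called genes (96.7%), a share that was not counted over all genes. Over all 13578 genes tested the log2 changes of the genotypes had a Pearson correlation of 0.397, and 1 gene was called in opposite directions. Pdcd1 rose by 2.24 ± 0.21 and Gimap4 by 3.33 ± 0.33 in Rora cKO (adjusted p = 1.64e-05 and 6.36e-05), and Dusp1 changed by -1.71 ± 0.19, Hlf by -3.64 ± 0.47 and Calca by -2.33 ± 0.26 (adjusted p = 7.69e-05, 0.000339 and 7.62e-05). A test of the difference between the genotypes' responses (interaction) called 0 of 13578 genes (0%) by edgeR, with 765 at an unadjusted p under 0.05, and DESeq2 called 17. Batf rose in WT and stood at 0.01 ± 0.15 in Rora cKO (adjusted p = 0.978), but that difference, -0.61 ± 0.22, did not pass (adjusted p = 0.866). The responses of Fth1 (-0.26 ± 0.12 in Rora cKO, difference 0.69 ± 0.17, adjusted p = 0.659) and Tbx21 (-2.20 ± 0.28, difference 0.93 ± 0.38, adjusted p = 0.866) did not differ past the threshold either.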

How the data were processed

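Bulk RNA-seq of sorted Tregs was read from the deposited count table of 24015 genes and 15 libraries. The authors' values are whole-number counts per gene; TopHat2 2.0.6, DESeq2 and the build mm9 are named per the submitters' processing notes. The counting tool and annotation are not given in the sources used here. Groups came from the sample titles. Genes were filtered with filterByExpr, scaled by TMM and tested in 1 fit of the 15 libraries by edgeR 4.0.16's quasi-likelihood test (robust; R 4.3.3), with Benjamini-Hochberg adjustment over 13578 genes and a threshold of 0.05. CPM were computed on TMM-scaled totals. Changes are log2, MC903 minus untreated, with their SE. The SE was worked back from the test, as the absolute log2 change over the square root of its F value. The fit was tested on simulated data.

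Genes were named by rule: the 15 largest changes in each direction and up to 4 called members of each list. The 15 were taken only from called genes whose groups did not overlap and whose mean log2 CPM was at least 3. A further set was followed whatever its genes did. Single markers of other cells and of T cells were picked from the marker lists outside these rules. Other genes are said to be chosen after their values were seen. The comparison, the members and the lists were chosen with earlier results of these data known. No p-value was computed for a list. Same-numbered libraries of the WT groups did not deviate together (correlations 0.038, 0.0719 and 0.0627), so the numbers were not used as pairs. Alternatives used DESeq2 1.42.0, limma 3.58.1, other scaling, filters and library sets. Some results are not reported here.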

Additional observations from a re-analysis of the deposited data

How the results depend on the processing

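With only the groups compared in the fit, 218 genes were higher and 323 lower in WT, against 683 and 738 reported. Without the WT untreated library highest in muscle and the WT MC903 library highest in fibroblast markers, chosen after seeing the data, the counts were 253 and 355. Leaving out 1 skin library at a time gave 378 to 752 higher and 389 to 760 lower genes in WT, 343 to 1054 higher and 276 to 853 lower in Rora cKO, and 0 to 1 for the interaction. In Rora cKO, limma-voom with sample weights called 1373 higher and 1295 lower, and DESeq2 called 1096 lower. DESeq2 called 17 genes for the interaction. With replicate numbers as a block, 613 genes were higher and 619 lower in WT, 720 higher and 605 lower in Rora cKO, and 0 passed for the interaction; the numbers are not known to pair the libraries. The causes were not tested. Genes that were not called turned sign with 1 library left out: over single left-out libraries the log2 change ran from -0.139 to 0.0095 for Cd3e, -1.66 to 1.21 for Cdh5, -0.247 to 0.006 for Ctla4, -2.12 to 0.45 for Flt1, -0.0481 to 0.21 for Gata3, -0.0206 to 2.16 for Il5, -4e-04 to 0.31 for Ptprc and -0.327 to 0.0374 for Vdr. Without both libraries named above Gata3 was -0.139 and Ptprc -0.107. Of 105 called genes named in the text, Gzma not among them, 81 kept their call under each of the 21 alternatives, and none turned sign. With 3 libraries per group, an exact permutation of a single value cannot go below p = 0.1.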

Other observations

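Further gene families were examined after their values were seen, and their counts stand against 5.03% of all genes called higher and 5.44% lower. Of 13 tubulin genes tested, 6 were lower and 0 higher, with a median log2 change of -1.07; tubulins build the microtubules of the cytoskeleton and spindle. Tuba4a stood at 599, 709 and 493 CPM in untreated and 194, 184 and 187 CPM in MC903 libraries (-1.67 ± 0.17, SE, n = 3 per group, adjusted p = 4.86e-05), and Tuba1a at 412, 464 and 317 CPM and 141, 167 and 166 CPM (-1.33 ± 0.16, adjusted p = 0.000161). Of 6 Ifitm genes, which encode membrane proteins induced by interferon, 2 were higher and 0 lower (median 1.7). Ifitm2 stood at 14.8, 19.7 and 22.5 CPM and 79.9, 66.3 and 70.5 CPM (1.93 ± 0.29, adjusted p = 0.00091) and Ifitm1 at 0.756, 0.929 and 0.646 CPM and 11.4, 2.9 and 5.01 CPM (3.04 ± 0.54, adjusted p = 0.00274, or 0.0959 by limma-voom). Of 7 Slfn genes, which are known for restraint of T cell growth, 3 were higher and 0 lower (median 0.02), with Slfn2 at 0.85 ± 0.15 (adjusted p = 0.00227). Of 13 Klf transcription factor genes 1, Klf3, was higher (0.69 ± 0.16, adjusted p = 0.0125, a call lost in 3 of 21 alternatives, among them replicate 1 of WT MC903 skin left out, 0.067) and 4 were lower (median -1), and of 19 Dusp phosphatase genes 0 were higher and 2, Dusp1 and Dusp6, lower (median -0.18). Tubulin, Ifitm and Slfn genes each resemble their own family members in sequence, so reads may be shared among them.

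Dusp6, a phosphatase of the ERK kinases, fell from 59.5, 55.8 and 54.6 CPM to 20, 12 and 21.7 CPM (-1.66 ± 0.22, adjusted p = 0.000277), while Tnfsf8, the ligand of CD30, rose from 17.5, 19.4 and 22.4 CPM to 66.7, 77 and 38.7 CPM (1.62 ± 0.29, adjusted p = 0.00314), beside the rise of its receptor gene Tnfrsf8. Gad1, the enzyme that makes the transmitter GABA, went from 0.851, 1.33 and 2.05 CPM to 21.2, 20.2 and 18.1 CPM (3.82 ± 0.36, adjusted p = 3.07e-05). Gad1, Dusp6 and Tnfsf8 were likewise picked after their values were seen.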
